A study of Cyclotella cryptica with 27 samples.

Results

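RNA sequencing of Cyclotella cryptica strain CCMP332, a centric diatom that lives across a wide range of salinities, was used to compare cultures after 30 min in freshwater with a seawater control. The 30 min group and the control had 6 libraries as labelled, of the 27 in the series, and 3 of these 6 were independent: 30 min replicates 2 and 3 and control replicate 1. The count table listed 21250 genes. Of these, 12501 had enough counts to be tested and 5736 of the tested genes carried a protein name.

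All cultures were grown to exponential phase in artificial seawater at 24 ppt and 15 °C, under 22 µmol photons per square metre per second and 16 h of light to 8 h of dark. For the 30 min group, cells were spun at 800 rcf for 3 min, resuspended in medium of 0 ppt and kept at 15 °C under 20 µmol photons per square metre per second with gentle agitation. The seawater control was labelled as 0 min in seawater of 24 ppt at 15 °C. A freshwater 0 min group, labelled 0 ppt, was a second baseline. Nothing in the labels says whether control cells were spun too. Poly(A) RNA of whole cultures was sequenced.

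Several labelled replicates were not separate measurements. Replicate 1 of the 30 min group equalled the mean of replicates 2 and 3, within 1 count, for 99.97% of the 21250 genes. Among 5643 well-counted genes (100 counts or more), 99.9% had exactly 7 fewer counts in control replicate 2 than in replicate 1. Control replicate 3 lay on a straight line against replicate 1, with a slope of 0.981. The 3 columns at 0 min likewise differed by constants. Each baseline therefore had 1 library, and its spread was taken from the other groups of the 16 independent columns. Gene counts summed to 3537770 in the control library, 6889349 in 30 min replicate 2, 3523804 in 30 min replicate 3 and 3198674 at 0 min. Nothing in the labels says whether the replicates came from separate cultures, so p-values measure the spread between these libraries. One gene without a protein name, CCRYP_005887, took 14.3% of gene counts in the control, 8.73% in replicate 2 and 21.4% in replicate 3.

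When a cell moves from seawater to freshwater, water enters by osmosis and the cell swells until it releases or breaks down osmolytes and exports ions. Diatoms carry a silica wall, and many centric diatoms extrude chitin fibres. They harvest light with fucoxanthin chlorophyll proteins in a plastid of secondary origin. Ribosome production is among the most costly programmes of a growing cell, and in yeast it is turned down in many acute stresses.

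At 30 min, genes for the cytosolic ribosome, ribosome assembly, RNA polymerases and translation factors were higher than in the seawater control. Mitochondrial respiration, chaperones, histones and cyclins also had more genes called higher than lower. Genes for light harvesting, chlorophyll and carotenoid synthesis and chitin metabolism were mostly lower. Of 12501 genes tested, 3840 (30.7%) were called at an adjusted p below 0.05, 1754 higher (14.0%) and 2086 lower (16.7%). In all 3840, both 30 min libraries lay on one side of the control, though the calls rest on these same libraries.

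Among called genes, the higher changes were larger than the lower ones. The median log2 fold change was 1.20 over genes called higher and -0.85 over genes called lower, beside 0.085 over all genes tested. At least 2-fold changes numbered 1220 higher and 574 lower, and at least 4-fold changes 236 higher and 6 lower. Of those 236, 84 had 0 to 3 counts in the control library. A gene with so few control counts can be called higher but has little room to be called lower. The 2 directions are therefore not compared on equal terms. In bulk RNA, fewer cells of a kind and less RNA per cell cannot be told apart.

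Counts of calls depended on replicate 2 and on the scaling. Without 30 min replicate 2, 1694 genes were called, 1118 higher and 576 lower. Without replicate 3, the calls were 1490 higher and 1946 lower. Scaling by library size alone moved the median of all genes from 0.085 to 0.34 and the split to 2596 higher and 886 lower, so 74.6% of calls were higher in place of 45.7%. List medians are therefore given beside the median of all genes.

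Fold changes also moved with abundance. Levels are given as CPM, the gene's counts relative to its library's total after scaling by the trimmed mean of M-values. Genes were ranked by mean log2 CPM over the 16 libraries, with no correction for length, and split into 5 equal groups. Among the most abundant 2500 genes, 42.0% were called lower and 10.8% higher, with a median log2 fold change of -0.44. Among the 2501 least abundant genes, 0.84% were called lower and 11.2% higher, with a median of 0.63. Both 30 min libraries showed this, with medians of -0.46 in replicate 2 and -0.42 in replicate 3 over the most abundant genes. The part of abundance in the list results was not tested. Counts within the 2500 most abundant genes are therefore given beside the lists that were lower and beside some others. RNA polymerases, histones with their modifiers, and cyclins were lists of lower abundance. Their median log2 CPM was 4.20, 4.24 and 4.03, beside 4.81 over all genes tested. In the fifth of genes that spans these medians, from 3.12 to 4.32, 15.8% were called higher and 4.44% lower.

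**Figure D1:**
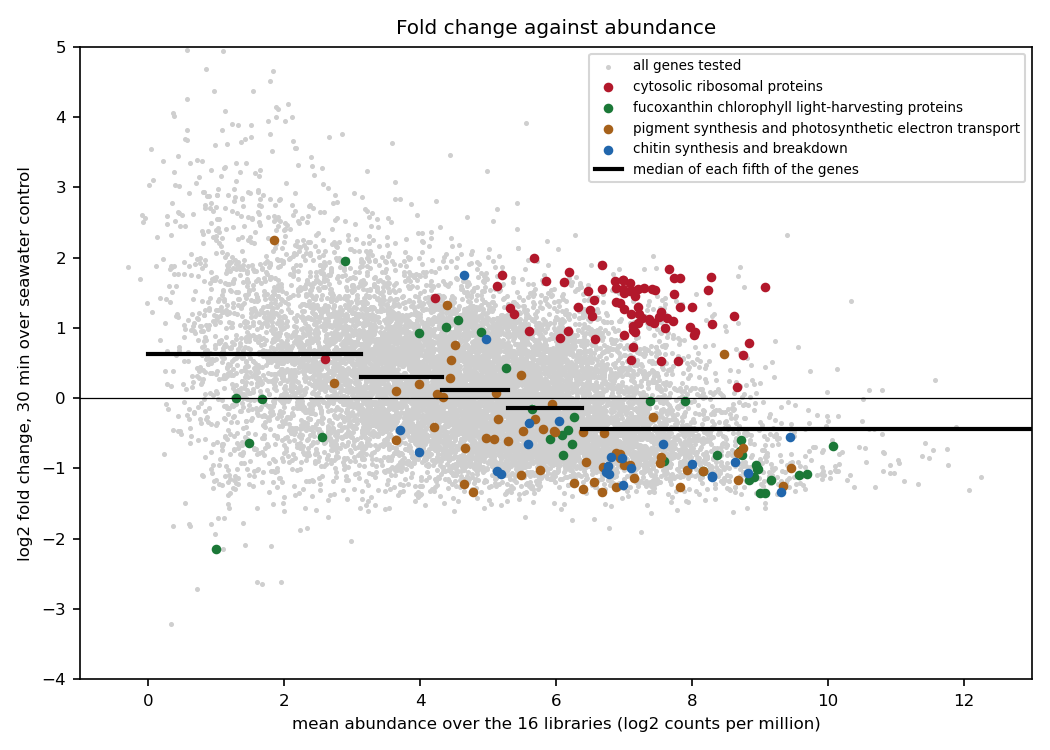
Each grey point is 1 gene tested, by its mean log2 CPM over the 16 libraries and its log2 fold change at 30 min over the seawater control; coloured points are members of 4 lists and black bars are medians of 5 equal groups by abundance. The bars descend from 0.63 to -0.44 while the cytosolic ribosomal proteins lie above 0; 28 genes fall outside the drawn range.

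Genes were grouped into 29 lists by words in their protein names. Many of these names belong to proteins of other organisms, so the roles given are those of the named proteins.

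**Figure D2:**
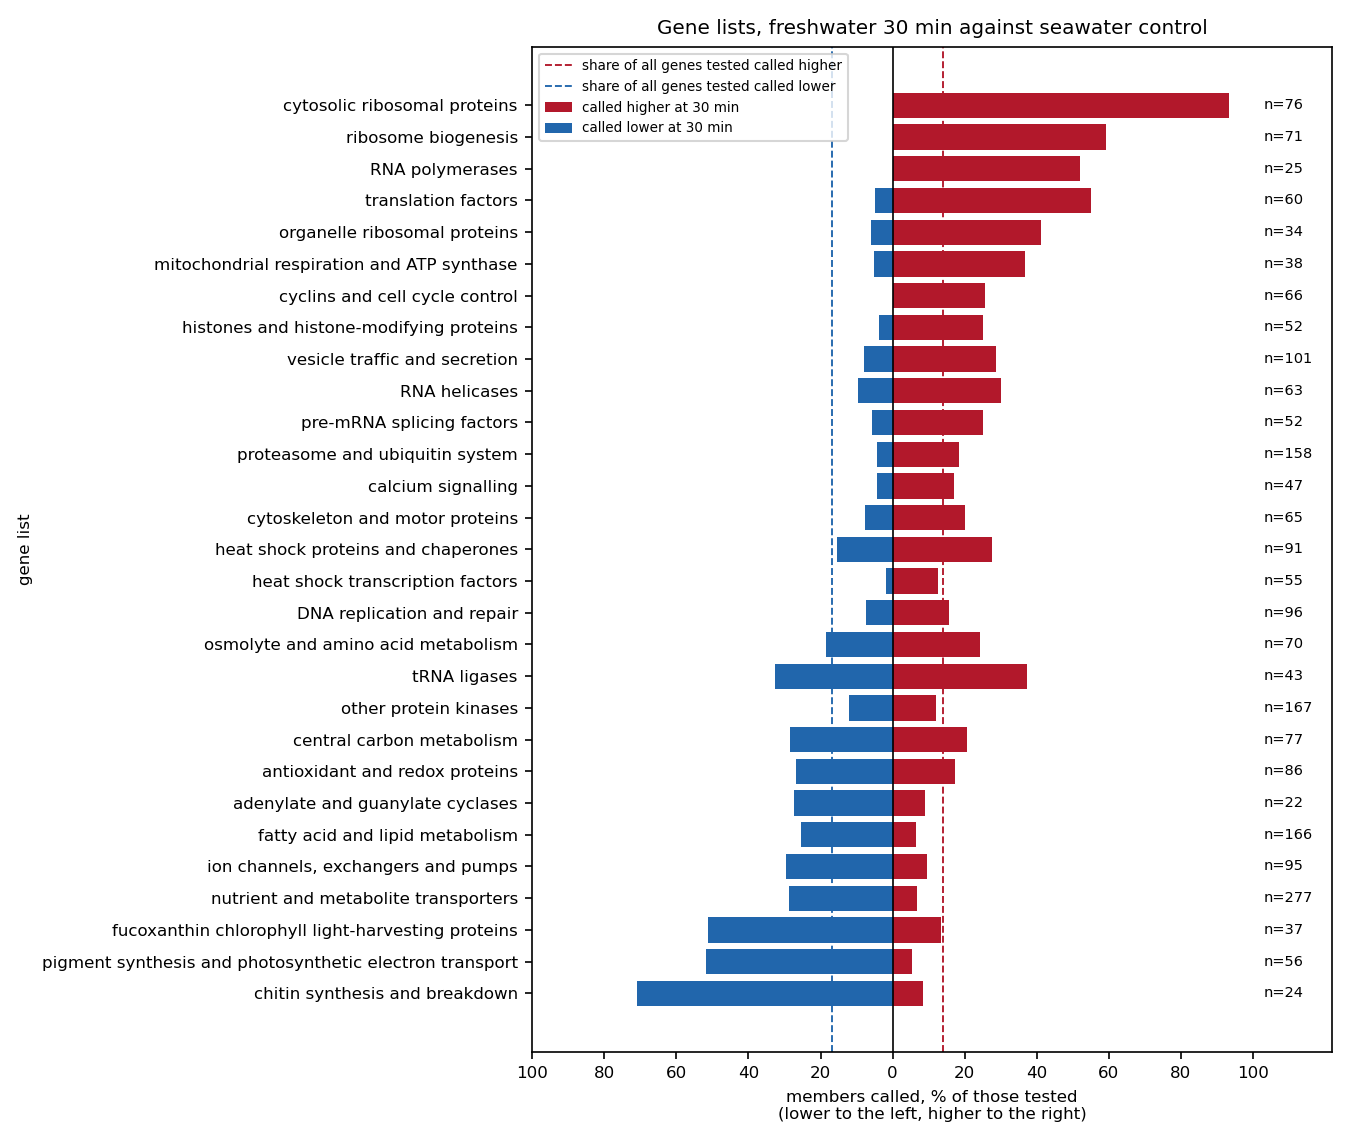
Bars give the percentage of tested members of each list called higher (right) or lower (left) at 30 min against the seawater control, with dashed lines at 14.0% and 16.7%, the shares over all genes tested. Cytosolic ribosomal proteins had 71 of 76 higher, and chitin metabolism had 17 of 24 lower.

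The cytosolic ribosome, the particle that makes most of the cell's protein, had the largest share of members called higher among the 29 lists. Of 76 tested ribosomal proteins, 71 (93.4%) were called higher and 0 lower, with a median log2 fold change of 1.29. Of the 62 members among the 2500 most abundant genes, 58 were higher, beside 10.8% of all genes there. Against 0 min, 55 were called higher and 0 lower, where 4.96% of all genes were higher. The count was 67 without replicate 2 and 70 without replicate 3.

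CCRYP_005564, 60S ribosomal protein L12-A of the large subunit stalk, had 29.3 CPM in the control, 131 in replicate 2 and 102 in replicate 3. CCRYP_001492, 40S ribosomal protein S28 of the small subunit, had 66.1 CPM in the control, 255 in replicate 2 and 239 in replicate 3. In both genes the 30 min libraries were more than 3-fold above the control and close to each other. L12-A had a log2 fold change of 1.99 ± 0.32 (SE) with an adjusted p of 0.00050, and S28 one of 1.90 ± 0.42 with an adjusted p of 0.0049 (edgeR quasi-likelihood test, Benjamini-Hochberg). Ribosomal proteins are encoded by similar gene copies, and reads aligned in more than 1 place were left out of the counts, so single members are uncertain. Such reads were 28.3% in the control, 20.9% in replicate 2 and 33.0% in replicate 3. The base was these reads together with reads counted in genes and ambiguous reads, not all reads sequenced.

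Ribosome assembly moved with the ribosome. Of 71 tested genes for ribosome biogenesis, 42 (59.2%) were called higher and 0 lower, with a median of 0.89. Against 0 min, 24 were higher and 0 lower. Factors for ribosomal RNA cutting, modification and nucleolar export were among them. CCRYP_020808, whose name begins 25S rRNA, had 16.6 CPM in the control, 59.2 in replicate 2 and 66.6 in replicate 3, a log2 fold change of 1.91 ± 0.36. CCRYP_007700, ribosomal RNA-processing protein 7, needed in yeast for small subunit assembly, had 3.32 CPM in the control, 11.3 in replicate 2 and 12.2 in replicate 3 (log2 fold change 1.80 ± 0.53). In both, replicate 3 was slightly above replicate 2, the reverse of the 2 ribosomal proteins.

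The polymerases that make RNA from DNA moved the same way. Of 25 RNA polymerase genes, 13 (52.0%) were called higher and 0 lower, with a median of 0.81. Without replicate 2 the count was 6 higher. CCRYP_009085, the polymerase III subunit RPC8, had 3.62 CPM in the control, 21.4 in replicate 2 and 19.1 in replicate 3 (log2 fold change 2.48 ± 0.51). CCRYP_013540, the subunit RPC10 of the same enzyme, which transcribes transfer RNAs and 5S ribosomal RNA, had 3.32 CPM in the control, 12.5 in replicate 2 and 10.3 in replicate 3 (1.78 ± 0.57). Its call was lost without replicate 2. Both genes had few counts, 12 and 11 in the control.

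RNA helicases, which unwind RNA in ribosome assembly, splicing and initiation, had 19 of 63 members higher (30.2%) and 6 lower, with a median of 0.35. CCRYP_005080, named DDX47, whose yeast relative acts in ribosomal RNA processing, had 12.4 CPM in the control, 33.6 in replicate 2 and 51.3 in replicate 3 (1.76 ± 0.37). CCRYP_008578, the initiation helicase eIF4A, had 128 CPM in the control, 352 in replicate 2 and 350 in replicate 3 (1.46 ± 0.22). The lower members included CCRYP_002231, a chloroplastic DExH-box helicase, with 126 CPM in the control, 62.6 in replicate 2 and 74.4 in replicate 3 (-0.88 ± 0.26). Without replicate 2, 0 helicases were called lower. Splicing factors had 13 of 52 higher and 3 lower, led by CCRYP_011244, splicing factor 3A subunit 2, at 4.83 CPM in the control, 20.1 in replicate 2 and 15.8 in replicate 3.

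Translation factors, which load messages and transfer RNAs onto the ribosome, had 33 of 60 members higher (55.0%) and 3 lower, with a median of 0.83. Against 0 min, 21 were higher and 0 lower. CCRYP_010137, initiation factor 5A, which helps ribosomes through difficult peptide sequences, had 119 CPM in the control, 509 in replicate 2 and 452 in replicate 3. Its level at 0 min was 109 CPM, close to the control. The log2 fold change was 2.02 ± 0.40, with an adjusted p of 0.0025 by edgeR's quasi-likelihood test. CCRYP_013460, the chloroplastic elongation factor Tu, had 55.0 CPM in the control, 185 in replicate 2 and 160 in replicate 3 (1.65 ± 0.27). Initiation factor 3, the largest of the initiation complexes, had 9 of 12 subunits higher and 0 lower. The lower members included CCRYP_001340, peptide chain release factor 2, at 68.5 CPM in the control, 34.5 in replicate 2 and 38.0 in replicate 3 (-0.93 ± 0.24), a call lost without replicate 2.

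The tRNA ligases, which charge transfer RNAs with amino acids, split into both directions: 16 of 43 were higher (37.2%) and 14 lower (32.6%). Grouped by name, after the values were seen, those named cytoplasmic had 9 of 12 higher and 1 lower, with a median of 0.86. Those named chloroplastic or mitochondrial had 3 of 8 higher and 5 lower, with a median of -0.73. These 5 lower ones had 146 to 473 CPM in the control, and the 12 named cytoplasmic 15.4 to 253. Of the 22 ligases among the 2500 most abundant genes, 14 were lower (63.6%) and 4 higher, beside 42.0% lower among all genes there. The part of abundance in the split by name was not tested. CCRYP_000832, a glutamine tRNA ligase, had 16.0 CPM in the control, 50.2 in replicate 2 and 50.5 in replicate 3 (1.65 ± 0.28). CCRYP_011001, an asparagine tRNA ligase named mitochondrial, had 21.7 CPM in the control, 92.6 in replicate 2 and 56.0 in replicate 3 (1.79 ± 0.34). CCRYP_016599, a threonine tRNA ligase named chloroplastic/mitochondrial, had 473 CPM in the control, 212 in replicate 2 and 292 in replicate 3 (-0.91 ± 0.24). Without replicate 2, 13 ligases were higher and 1 lower.

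Ribosomal proteins of the plastid and mitochondrion had 14 of 34 members higher (41.2%) and 2 lower, with a median of 0.76. Against 0 min, 2 were higher, and without replicate 2, 6 were higher and 0 lower. CCRYP_002491, 50S ribosomal protein L28, had 46.5 CPM in the control, 137 in replicate 2 and 123 in replicate 3 (1.49 ± 0.29). CCRYP_005307, 50S ribosomal protein L33, had 6.34 CPM in the control, 21.4 in replicate 2 and 17.2 in replicate 3 (1.62 ± 0.44). CCRYP_011931, 50S ribosomal protein L9, went the other way, with 169 CPM in the control, 78.5 in replicate 2 and 108 in replicate 3 (-0.87 ± 0.22).

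Protein folding showed changes in both directions. Of the 23 heat shock proteins and chaperones among the 2500 most abundant genes, 7 were higher and 10 lower (43.5%), near the 42.0% lower of all genes there. Of all 91 tested, 25 (27.5%) were higher and 14 (15.4%) lower, with a median of 0.44. Without replicate 2, these were 18 and 5. CCRYP_004570, the mitochondrial 10 kDa chaperonin, the lid of the folding chamber, had 17.8 CPM in the control, 135 in replicate 2 and 108 in replicate 3. At 24.6 CPM, the 0 min library was near the control. Its log2 fold change was 2.78 ± 0.61, with an adjusted p of 0.0072 by edgeR's quasi-likelihood test. CCRYP_020418, heat shock cognate 70 kDa protein 1, a general folding helper, had 29.0 CPM in the control, 124 in replicate 2 and 98.8 in replicate 3 (1.95 ± 0.29).

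Chaperone families differed in their counts. Hsp70 and Hsp90 proteins had 6 of 11 members higher and 0 lower. The T-complex, which folds actin and tubulin, had 5 of 8 subunits higher and 1 lower. Clp chaperones, several of which act in the plastid, had 1 of 7 higher and 4 lower, with a median of -0.91. CCRYP_003628, a DnaJ protein, was the lowest eligible chaperone, with 143 CPM in the control, 59.4 in replicate 2 and 65.8 in replicate 3 (-1.20 ± 0.20). These subgroups were chosen after the values were seen.

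Heat shock transcription factors, a family that is expanded in diatoms, had 7 of 55 members higher (12.7%) and 1 lower, a share near the 14.0% of all genes, and 4 higher without replicate 2. Against 0 min the list's median was -0.12. On log2 CPM differences to the control, the list stood at 0.48 at 0 min and 0.45 at 30 min. CCRYP_020449, named A-5, had 4.23 CPM in the control, 22.6 in replicate 2 and 15.5 in replicate 3 (2.19 ± 0.55). CCRYP_006349, named A-3, had 1 count in the control, 43 in replicate 2 and 20 in replicate 3, a ratio of 17.6 with a 95% counting interval of 3.04 to 705. It stood at 4.00 CPM already at 0 min, beside 5.20 and 5.55 at 30 min.

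The proteasome and ubiquitin system, which tags and breaks down proteins, had 29 of 158 members higher (18.4%) and 7 lower, or 19 and 2 without replicate 2. Of all genes tested, 14.0% were higher and 16.7% lower. Proteasome subunits had 9 of 36 higher and 0 lower. E3 ligases, which choose the targets, had 7 of 58 higher and 5 lower, a share of higher calls near that of all genes. CCRYP_002041, a subunit of an SCF ligase, had 3.93 CPM in the control, 13.7 in replicate 2 and 14.7 in replicate 3 (1.84 ± 0.46), and 17.2 at 0 min. CCRYP_002673, an enzyme that activates ubiquitin-like modifiers, had 111 CPM in the control, 49.8 in replicate 2 and 62.1 in replicate 3, and its call was lost without replicate 2.

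**Figure D3:**
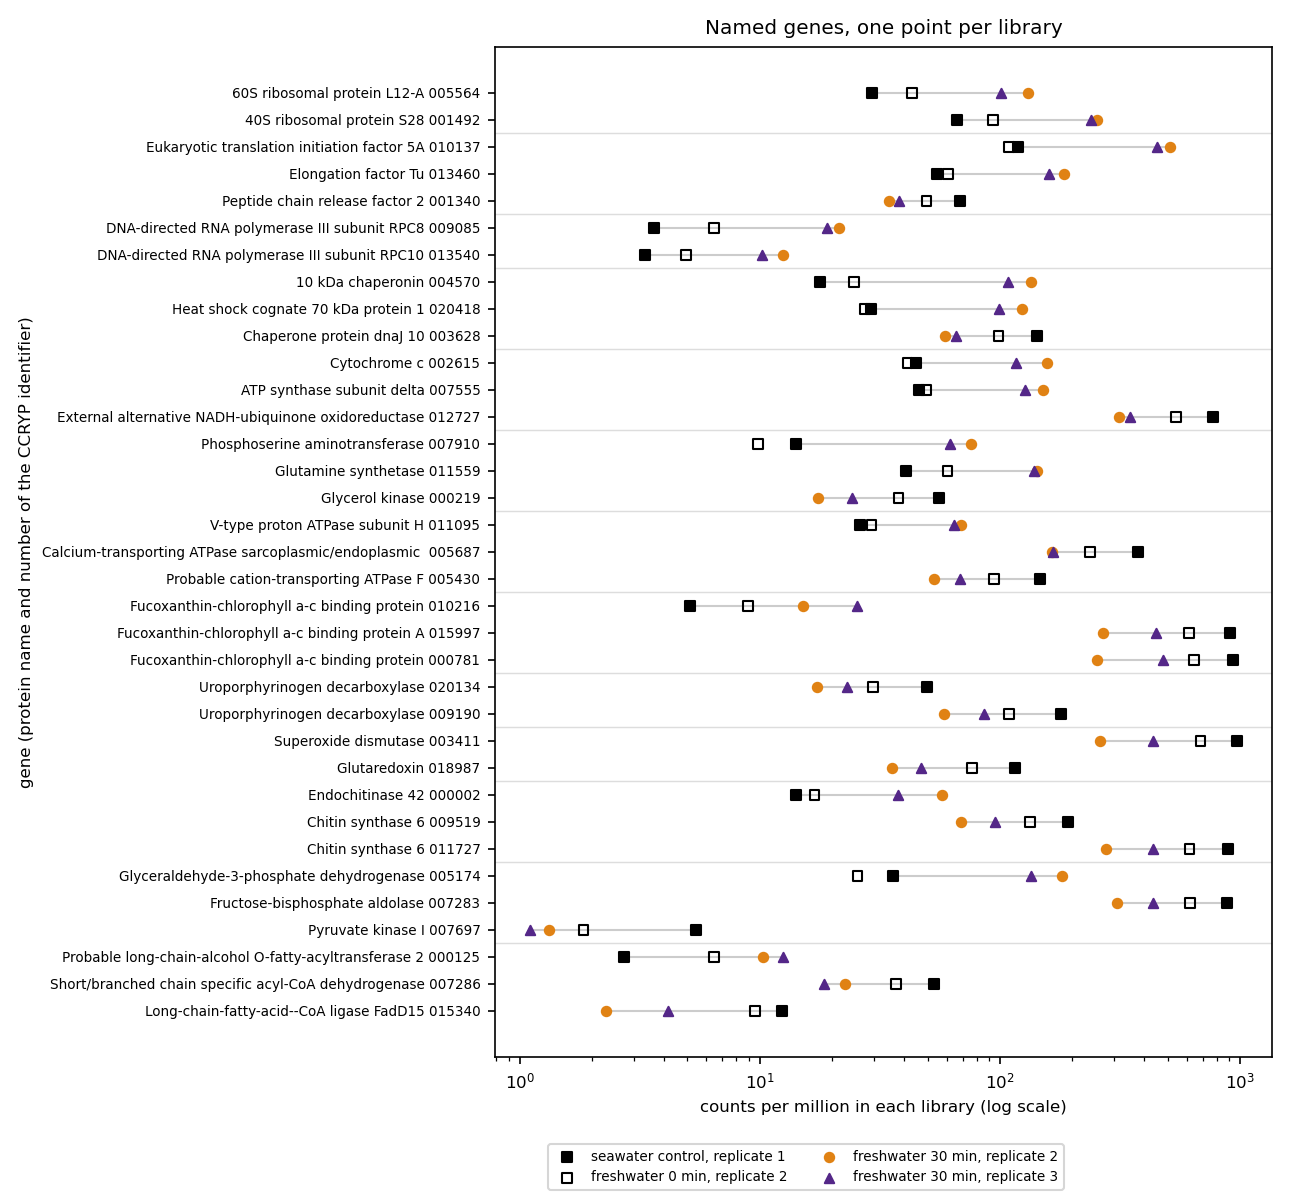
Each row is 1 named gene of 13 lists and each point is its level in 1 library, in CPM on a log axis: filled squares for the seawater control, open squares for 0 min, circles and triangles for 30 min replicates 2 and 3. The rule that picked these genes required both 30 min points to lie on the same side of the control. For the fucoxanthin chlorophyll protein CCRYP_000781 the points are 934 in the control, 254 in replicate 2 and 479 in replicate 3.

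Energy metabolism was split. Mitochondrial respiration and ATP synthase genes had 14 of 38 members higher (36.8%) and 2 lower, with a median of 0.63. Without replicate 2, 6 were higher and 2 lower. CCRYP_002615, cytochrome c, the electron carrier between complexes III and IV, had 44.7 CPM in the control, 157 in replicate 2 and 117 in replicate 3 (1.62 ± 0.34). CCRYP_007555, the delta subunit of ATP synthase, had 45.9 CPM in the control, 152 in replicate 2 and 127 in replicate 3 (1.61 ± 0.32). CCRYP_012727, an external alternative NADH dehydrogenase that bypasses complex I, had 771 CPM in the control, 314 in replicate 2 and 347 in replicate 3 (-1.22 ± 0.24). Both 30 min libraries were above the control for the first 2 genes and below it for the last, one side per gene being required by the naming rule.

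Central carbon metabolism had 16 of 77 members higher (20.8%) and 22 lower (28.6%), with a median of -0.05 that was above 0 without either 30 min replicate. Among the 38 most abundant members 52.6% were lower, beside 42.0% of all genes there. The counts were 10 higher and 12 lower without replicate 2. CCRYP_005174, glyceraldehyde-3-phosphate dehydrogenase of glycolysis, had 35.9 CPM in the control, 181 in replicate 2 and 135 in replicate 3 (2.14 ± 0.39). CCRYP_007283, fructose-bisphosphate aldolase, which splits the sugar just before that step, had 885 CPM in the control, 307 in replicate 2 and 435 in replicate 3 (-1.26 ± 0.26). CCRYP_007697, pyruvate kinase I, had 5.44 CPM in the control, 1.33 in replicate 2 and 1.11 in replicate 3 (-2.09 ± 0.73). Its call was lost without either 30 min replicate. Other pyruvate kinase, aldolase and phosphoglycerate kinase genes were called in both directions, so the enzyme name did not fix the direction.

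Adenylate kinases, which balance ATP, ADP and AMP, were looked up after their values were seen. Of 7 tested, 4 were higher and 0 lower, with a median of 1.76. Against 0 min, 1 was higher and 0 lower, with a median of 0.44. CCRYP_016005, adenylate kinase 3, had 4.53 CPM in the control, 38.1 in replicate 2 and 26.4 in replicate 3 (2.84 ± 0.55).

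Osmolytes are small solutes such as proline and betaines that cells hold in salt water. The list of osmolyte and amino acid metabolism had 17 of 70 members higher (24.3%) and 13 lower (18.6%), with a median of 0.06. Without replicate 2, 13 were higher and 5 lower. CCRYP_007910, phosphoserine aminotransferase of the serine pathway, had 14.2 CPM in the control, 76.0 in replicate 2 and 62.1 in replicate 3, and 9.85 at 0 min. Its log2 fold change was 2.29 ± 0.34, with an adjusted p of 0.00028 by edgeR's quasi-likelihood test. The enzyme before it, phosphoglycerate dehydrogenase, was looked up afterwards and had 2 of 3 genes higher. CCRYP_020254 of these had 1.21 CPM in the control, 12.9 in replicate 2 and 13.9 in replicate 3 (3.43 ± 0.67). CCRYP_011559, chloroplastic glutamine synthetase, which fixes ammonium, had 40.8 CPM in the control, 143 in replicate 2 and 139 in replicate 3 (1.79 ± 0.34).

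Among the lower genes of that list was CCRYP_000219, glycerol kinase, which brings glycerol into metabolism, at 55.6 CPM in the control, 17.4 in replicate 2 and 24.1 in replicate 3 (-1.45 ± 0.25). Proline genes, looked up after the values were seen, gave 1 of 5 higher and 1 lower. CCRYP_013367, the first enzyme of proline synthesis, had 31.1 CPM in the control, 65.2 in replicate 2 and 62.7 in replicate 3 (1.04 ± 0.26). CCRYP_011235, the proline-degrading dehydrogenase, had 36.5 CPM in the control, 17.8 in replicate 2 and 25.2 in replicate 3 (-0.80 ± 0.26). The 3 pyrroline-5-carboxylate reductases, which finish proline synthesis, were not called. Transporters named for proline or betaine had 0 of 5 higher and 2 lower. The lower ones were led by CCRYP_014122, which had 832 CPM in the control, 388 in replicate 2 and 427 in replicate 3 (-1.03 ± 0.25).

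Ion channels, exchangers and pumps had 9 of 95 members higher (9.47%) and 28 lower (29.5%), with a median of -0.36. Of its 46 members among the 2500 most abundant genes, 41.3% were lower, near the 42.0% of all genes there. Without replicate 2 the counts were 5 and 5, and under library-size scaling 11 and 10. Against 0 min the list's median was -0.15, and on log2 CPM differences to the control it stood at -0.27 at 0 min and -0.38 at 30 min. CCRYP_005687, an endoplasmic reticulum calcium pump, had 375 CPM in the control, 164 in replicate 2 and 167 in replicate 3 (-1.18 ± 0.23). CCRYP_005430, a cation-transporting ATPase, had 147 CPM in the control, 53.1 in replicate 2 and 68.0 in replicate 3 (-1.29 ± 0.24). The V-type proton ATPase, which acidifies vacuoles and vesicles, made up 6 of the 9 higher genes. Of 9 subunits grouped as its soluble sector, 5 were higher and 0 lower. That group also took in subunit d of the membrane sector (CCRYP_003311), which was not called. Of its proteolipids in the membrane, 1 of 8 was higher and 4 lower. CCRYP_011095, subunit H, had 26.3 CPM in the control, 69.0 in replicate 2 and 64.4 in replicate 3 (1.35 ± 0.25).

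Channels that open under membrane tension are known to release solutes in bacteria under hypoosmotic shock. Of 5 mechanosensitive channels, 0 were higher and 4 lower. CCRYP_014152, named mechanosensitive channel 9, had 287 CPM in the control, 139 in replicate 2 and 163 in replicate 3 (-0.93 ± 0.21). Sodium/hydrogen exchangers, which trade sodium against protons, had 0 of 8 higher and 4 lower, for example CCRYP_014781 at 329 CPM in the control, 133 in replicate 2 and 181 in replicate 3 (-1.07 ± 0.24). Potassium channels had 0 of 13 higher and 2 lower. Beside these counts, 16.7% of all genes tested were lower, and 42.0% of the 2500 most abundant. The 5 mechanosensitive channels had 97.2 to 303 CPM in the control. The part of abundance in these counts was not tested. None of the lower calls in these 3 subgroups was also a call against 0 min.

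Nutrient and metabolite transporters had 19 of 277 members higher (6.86%) and 80 lower (28.9%), with a median of -0.28. Of 89 among the most abundant genes, 48.3% were lower, beside 42.0%. Without replicate 2, 15 were higher and 17 lower, and under library-size scaling 36 and 33. Against 0 min, 9 were higher and 7 lower, and on log2 CPM differences to the control the list stood at -0.23 at 0 min and -0.28 at 30 min. Transporters named for sulfate, phosphosulfate or molybdate had 1 of 22 higher and 13 lower, and zinc transporters 0 of 11 higher and 6 lower. CCRYP_005475, a sulfate transporter, had 74.3 CPM in the control, 23.5 in replicate 2 and 31.1 in replicate 3 (-1.47 ± 0.26). The exception was CCRYP_016753, a sodium/sulfate cotransporter, with 406 CPM in the control, 2071 in replicate 2 and 1994 in replicate 3, and 895 at 0 min. Its log2 fold change was 2.33 ± 0.76 with an adjusted p of 0.048 by edgeR's test, a call lost without either 30 min replicate.

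The single aquaporin tested, CCRYP_011367, a water or glycerol channel by its family, had 5.13 CPM in the control, 1.69 in replicate 2 and 1.66 in replicate 3. With a log2 fold change of -1.59 ± 0.57, its call was lost without either 30 min replicate. The silicon efflux transporter CCRYP_016289 had 464 CPM in the control, 216 in replicate 2 and 267 in replicate 3 (-0.94 ± 0.26). Mitochondrial carriers, which move metabolites across the inner membrane, had 11 of 55 higher and 9 lower. Beside these counts, 14.0% of all genes tested were higher and 16.7% lower. Among them CCRYP_018686, an ADP,ATP carrier, had 242 CPM in the control, 782 in replicate 2 and 825 in replicate 3 (1.73 ± 0.29).

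Light harvesting was lower. Of 37 tested fucoxanthin chlorophyll and related light-harvesting proteins, 19 (51.4%) were lower and 5 (13.5%) higher, with a median of -0.66. Of the 19 members among the most abundant genes, 17 were lower, beside 42.0% of all genes there. Without replicate 2, 7 were lower and 4 higher, and against 0 min the only call was 1 higher, with a list median of -0.47. CCRYP_000781 had 934 CPM in the control, 254 in replicate 2 and 479 in replicate 3, and 642 at 0 min. CCRYP_015997 had 910 CPM in the control, 268 in replicate 2 and 446 in replicate 3, and 614 at 0 min. Replicate 2 lay well below replicate 3 in both, and the 0 min level lay between replicate 3 and the control. Their log2 fold changes were -1.35 ± 0.33 and -1.35 ± 0.26. The call of CCRYP_000781 was lost without replicate 2.

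The 5 members of this list called higher (13.5%) were a share near the 14.0% of all genes tested. Of the 19 members among the most abundant genes, 0 were higher. CCRYP_010216, also named fucoxanthin-chlorophyll a-c binding protein, had 5.13 CPM in the control, 15.1 in replicate 2 and 25.5 in replicate 3 (1.95 ± 0.60), a call lost without replicate 3. These genes are near-identical families, and reads aligned in more than 1 place were left out, so the split between copies is uncertain.

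Pigment synthesis and photosynthetic electron transport had 29 of 56 members lower (51.8%) and 3 higher, with a median of -0.66. Among the most abundant genes, 22 of 26 were lower. Without replicate 2, 13 were lower, and against 0 min 1 was lower and 2 higher. Tetrapyrrole enzymes, which make chlorophyll and haem, had 15 of 20 lower and 0 higher. Carotenoid enzymes, which make fucoxanthin and the photoprotective xanthophylls, had 10 of 17 lower and 0 higher, with a median of -0.79. CCRYP_009190, uroporphyrinogen decarboxylase of the tetrapyrrole pathway, had 181 CPM in the control, 58.4 in replicate 2 and 85.7 in replicate 3 (-1.34 ± 0.23). CCRYP_009294, a violaxanthin de-epoxidase of the xanthophyll cycle, had 74.9 CPM in the control, 34.2 in replicate 2 and 36.3 in replicate 3 (-1.09 ± 0.23). The median at 0 min against the control, on the scale of log2 CPM differences, was already -0.40 for this list, beside -0.64 at 30 min.

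Redox proteins were divided between families. The list had 23 of 86 members lower (26.7%) and 15 higher (17.4%), with a median of -0.18. Among the 19 most abundant members, 47.4% were lower, near the 42.0% of all genes there. Against 0 min, 5 were higher and 5 lower, with a median of 0.093. On log2 CPM differences to the control, the list stood at -0.22 both at 0 min and at 30 min. CCRYP_003411, a superoxide dismutase, which removes superoxide, had 969 CPM in the control, 261 in replicate 2 and 433 in replicate 3. Its log2 fold change was -1.49 ± 0.25, with an adjusted p of 0.00052 by edgeR's quasi-likelihood test, and it was also lower against 0 min (685 CPM). CCRYP_018987, a glutaredoxin, had 116 CPM in the control, 35.7 in replicate 2 and 47.2 in replicate 3 (-1.50 ± 0.24). Peroxiredoxins, which break down peroxides, had 3 of 5 higher and 0 lower, and 1 higher against 0 min. Those 3 had 3, 8 and 44 counts in the control. The most abundant peroxiredoxin, CCRYP_010295, was not called, with 217 CPM in the control, 157 in replicate 2 and 196 in replicate 3. Ascorbate peroxidases had 1 of 8 higher and 3 lower. CCRYP_016269, a peroxiredoxin-2E, had 3 counts in the control, 79 in replicate 2 and 29 in replicate 3, a ratio of 10.0 with a 95% counting interval of 3.35 to 49.5. Without replicate 2, 11 members of the list were lower and 8 higher.

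Chitin metabolism had the largest share of members lower among the 29 lists, 17 of 24 (70.8%), with 2 higher and a median of -0.92. The most abundant genes included 15 members, 14 of them lower. Without replicate 2, 6 were lower, and against 0 min 2 were lower and 1 higher. Chitin synthases, which spin the fibres, had 4 of 5 lower. CCRYP_011727 had 896 CPM in the control, 277 in replicate 2 and 436 in replicate 3 (-1.33 ± 0.26). CCRYP_009519 had 193 CPM in the control, 69.2 in replicate 2 and 95.4 in replicate 3 (-1.24 ± 0.23). Chitinases, which cut chitin, had 13 of 18 lower and 2 higher. The larger rise was that of CCRYP_000002, endochitinase 42, with 14.2 CPM in the control, 57.2 in replicate 2 and 37.7 in replicate 3 (1.76 ± 0.42).

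Fatty acid and lipid metabolism had 42 of 166 members lower (25.3%) and 11 higher (6.63%), with a median of -0.24. Scaling by library size gave 21 lower and 21 higher. Against 0 min, 5 were higher and 3 lower, with a median of -0.05. On log2 CPM differences to the control, the list stood at -0.24 both at 0 min and at 30 min. Without replicate 2, 10 were lower and 6 higher. Of 36 members among the most abundant genes, 52.8% were lower. Long-chain acyl-CoA ligases, which activate fatty acids, had 4 of 7 lower and 0 higher. CCRYP_015340, named FadD15, had 12.4 CPM in the control, 2.30 in replicate 2 and 4.16 in replicate 3 (-2.03 ± 0.46), a call lost without replicate 2. CCRYP_007286, an acyl-CoA dehydrogenase of branched-chain breakdown, had 53.1 CPM in the control, 22.6 in replicate 2 and 18.6 in replicate 3 (-1.35 ± 0.22). CCRYP_000125, an acyltransferase of wax ester synthesis, had 2.72 CPM in the control, 10.3 in replicate 2 and 12.5 in replicate 3 (2.04 ± 0.63).

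Cyclins and cell cycle control had 17 of 66 members higher (25.8%) and 0 lower, with a median of 0.45. CCRYP_013607, a G2/mitotic-specific cyclin, had 4.83 CPM in the control, 20.3 in replicate 2 and 26.9 in replicate 3 (2.27 ± 0.48). Histones and their modifiers had 13 of 52 higher and 2 lower, and the histones proper 8 of 25 higher and 0 lower. Without replicate 2, 7 of the whole list were higher. CCRYP_012985, a histone H3 gene, had 12.4 CPM in the control, 62.6 in replicate 2 and 32.2 in replicate 3 (1.96 ± 0.36). Histone messages of many organisms lack a poly(A) tail, and histone genes come in near-identical copies, so their levels in poly(A) libraries are uncertain. DNA replication and repair, at 15 of 96 higher (15.6%) and 7 lower, had a share of higher calls near that of all genes, and 7 higher calls without replicate 2. CCRYP_004653, a subunit of replication protein A, which coats single-stranded DNA, had 7.55 CPM in the control, 34.6 in replicate 2 and 24.7 in replicate 3 (1.99 ± 0.37).

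Cytoskeleton and motor proteins had 13 of 65 members higher (20.0%) and 5 lower, or 8 and 1 without replicate 2. Tubulins, actins and tubulin-folding cofactors had 5 of 9 higher and 0 lower. CCRYP_001906, an alpha tubulin, had 51.9 CPM in the control, 190 in replicate 2 and 149 in replicate 3 (1.71 ± 0.32). Flagellar dyneins, the motors of the swimming sperm of centric diatoms, made up 4 of the 5 lower members. These 4 were among 16 dyneins tested, which had a median of -0.11. Of the 4, CCRYP_012000, an outer-arm beta chain, had 84.8 CPM in the control, 41.4 in replicate 2 and 35.2 in replicate 3 (-1.14 ± 0.22). Vesicle traffic had 29 of 101 higher (28.7%) and 8 lower (22 and 3 without replicate 2), and 7 of 11 Rab GTPases higher. CCRYP_001296, a Rab of secretory traffic, had 16.9 CPM in the control, 56.4 in replicate 2 and 43.6 in replicate 3 (1.57 ± 0.30). Against 0 min, 3 vesicle genes were called higher.

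Calcium signalling had 8 of 47 members higher (17.0%) and 2 lower (4.26%), and other protein kinases 20 of 167 higher (12.0%) and 20 lower. The shares of higher calls in both lists were near the 14.0% of all genes. Without replicate 2, calcium signalling had 4 higher and the kinases 10 higher and 1 lower. CCRYP_007721, the calcium-binding B subunit of the phosphatase calcineurin, had 1.81 CPM in the control, 10.3 in replicate 2 and 11.9 in replicate 3 (2.58 ± 0.54). CCRYP_015460, a p21-activated kinase, had 1.51 CPM in the control, 23.5 in replicate 2 and 18.0 in replicate 3, with 8.31 at 0 min. Its log2 fold change was 3.77 ± 0.58, with an adjusted p of 0.00035 by edgeR's quasi-likelihood test, on 5 counts in the control. CCRYP_012368, the kinase Nek8, fell by 2.64 on the log2 scale, from 7.25 CPM to 0.847 in replicate 2 and 1.66 in replicate 3, and its call was lost without replicate 2. Adenylate and guanylate cyclases, which make cyclic nucleotides, had 2 of 22 higher and 6 lower (1 and 2 without replicate 2), with a median of -0.02. Of the 5 among the most abundant genes, 2 were lower.

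Genes with few or no counts in the control gave the highest fitted fold changes, and 16 of the 57 higher genes that the naming rule picked had 0 to 3 counts there. The ratios, intervals and floors below do not cover the choice among copied control columns. Control replicates 1 and 2 differed by 7 counts in well-counted genes. With the copied columns averaged instead, 96 of all 97 genes picked kept their call. U6 snRNA-associated protein LSm2 (CCRYP_007663), part of the ring that binds U6 RNA, had 1 count in the control, 79 in replicate 2 and 25 in replicate 3. The ratio was 29.0, with a 95% counting interval of 5.09 to 1157. COQ10 (CCRYP_015528), which binds coenzyme Q in mitochondria, had 0 counts in the control, 43 in replicate 2 and 18 in replicate 3. Against a floor of 3 counts in the control library it was at least 5.67-fold higher. On the same floor, a leishmanolysin-like peptidase (CCRYP_010910) was at least 2.60-fold higher and the phosphatase CPPED1 (CCRYP_004878) at least 2.42-fold higher. At 0 min, CPPED1 already had 3.38 CPM, above its 1.81 in replicate 2 and 3.05 in replicate 3. The peptidase had 1.23 CPM at 0 min, LSm2 3.38 and COQ10 2.46. CCRYP_016659, which has no protein name, had 0 counts in the control, 91 in replicate 2 and 23 in replicate 3, at least 10.6-fold higher.

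At the other end, CCRYP_007069, a mitochondrial aldehyde dehydrogenase, which oxidises aldehydes to acids, had 65.2 CPM in the control, 17.1 in replicate 2 and 24.4 in replicate 3. Its log2 fold change was -1.69 ± 0.24, with an adjusted p of 0.00026 by edgeR's quasi-likelihood test, and it was also lower against 0 min (48.9 CPM). The unnamed gene CCRYP_016102 had 7.85 CPM in the control, 1.33 in replicate 2 and 1.11 in replicate 3 (-2.62 ± 0.64). Genes without a protein name made up 6765 of those tested, 11.3% of them higher and 16.6% lower, beside 17.2% and 16.8% of named genes.

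The second baseline asked how 30 min differed from cells taken at 0 min in freshwater. Here 807 genes (6.46%) were called, 620 higher (4.96%) and 187 lower (1.5%), and 2976 had an unadjusted p below 0.05. Without replicate 2 the calls were 151 higher and 4 lower. Both comparisons use the same 30 min libraries. Of the 1754 genes higher against the control, 513 were also called higher against 0 min, and of the 2086 lower, 151 were also called lower. Ribosomal, assembly and translation genes held the larger counts in this comparison too, with 55, 24 and 21 called higher and 0 lower in each. Central carbon metabolism had 13 higher and 1 lower, and osmolyte and amino acid metabolism 14 higher and 4 lower.

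**Figure D4:**
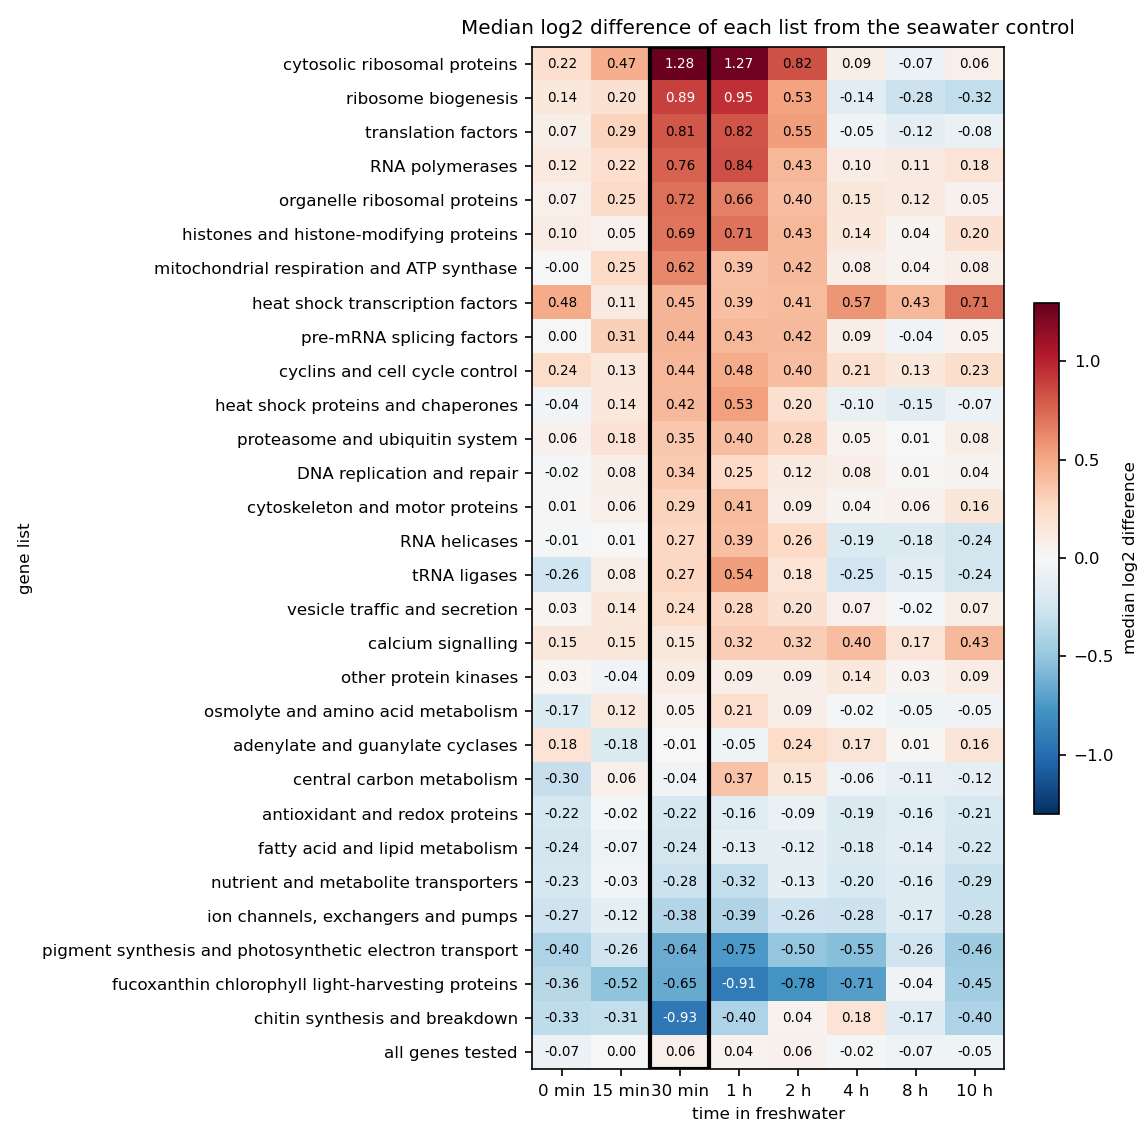
Each cell is the median, over the tested genes of a list, of the difference in mean log2 CPM between a time in freshwater and the seawater control library, with 30 min outlined. The cytosolic ribosomal proteins stood at 0.22 at 0 min, 1.28 at 30 min and 0.09 at 4 h, and chitin metabolism at -0.33, -0.93 and 0.18.

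Set among the other times, all read against the same control library, the list medians at 30 min and 1 h were close for the ribosome. On log2 CPM differences, the cytosolic ribosomal proteins went from a median of 0.22 in the 0 min library to 0.47 after 15 min and 1.28 after 30 min, then 1.27 after 1 h, 0.82 after 2 h and 0.09 after 4 h. Ribosome biogenesis had 0.20 after 15 min, 0.89 after 30 min and 0.95 after 1 h. Chitin metabolism had -0.31 after 15 min, -0.93 after 30 min and -0.40 after 1 h, the lowest of its 8 medians being that of 30 min. The light-harvesting list had -0.52 after 15 min, -0.65 after 30 min and -0.91 after 1 h. These medians share the control and are given as a description.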

How the data were processed

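Transcript abundance was measured by poly(A) RNA sequencing. The authors deposited whole-number gene counts, per the file headers, made with STAR 2.7.3a and HTSeq 0.11.3, per the submitters' processing notes; no source used here names the genome build, the annotation or a strand setting, which leaves overlapping and antisense genes uncertain. Reads aligned in more than 1 place were left out of gene counts. A second table deposited by the authors holds their log2 fold changes against 0 min with adjusted p-values, per the file headers, and was not used here. Columns matched to no sample numbered 0.

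Columns were checked for copies and means, and 16 of 27 were kept. Genes passing filterByExpr (minimum count 10, minimum total 15) were scaled by TMM. The quasi-likelihood test of edgeR 4.0.16, in its robust form, was run in R 4.3.3 (limma 3.58.1) with a coefficient for each of the 9 groups, which left 7 residual degrees of freedom. P-values were adjusted by Benjamini-Hochberg over all 12501 genes, and genes below 0.05 were called. Differences of log2 CPM used a prior count of 2. The common biological coefficient of variation was 14.2%.

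The 29 lists were words matched to the protein names in the count table; 2285 genes fell in at least 1 list and 13 in more than 1. Members and lists were chosen with earlier results of these data known. Genes named were called, had both 30 min libraries on one side of the control and at least 10 counts in every library of the higher group. From these came, in each list, the 2 largest changes in the commoner direction and the largest in the other, and the 6 highest and 6 lowest named and 3 highest and 3 lowest unnamed genes (97 in all; not every one is printed). Members of subgroups were chosen after their values were seen.

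Ratios on 1 to 3 control counts carry exact (Clopper-Pearson) 95% intervals, which, like the floor of 3 counts, cover counting error only. The method was tested on simulated data. Alternatives were DESeq2 1.42.0, limma-voom, other scalings and filters, fewer or more columns, and a replicate block. Of the 14109 genes in the RefSeq gene table, 0 matched an ID in the files, so no coordinates or sequences are given.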

Additional observations from a re-analysis of the deposited data

Results flagged for a closer look

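The share of reads aligned in more than 1 place, which no comparison uses, was 33.0% in 30 min replicate 3. It was 20.9% in 30 min replicate 2 and 28.3% in the seawater control. The base was such reads together with reads counted in genes and ambiguous reads. Reads aligned in more than 1 place were left out of the gene counts of each library. The loss in single gene families is not measured by these tables. Its part in the results was not tested.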

How the results depend on the processing

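No gene called in the comparison with the seawater control and under any of 13 alternatives changed direction (0 in each), and 59 of the 97 genes picked by the naming rule kept their call under every alternative that tested them. Calls against the control numbered 1694 to 3436 when 1 of the 30 min replicates was left out (1118 to 1490 higher, 576 to 1946 lower). All 27 columns, which count copies as replicates, gave 8721 calls, 4877 higher and 3844 lower, and library size alone gave 886 lower. Against 0 min, leaving out a replicate gave 155 to 1025 calls, 151 to 599 higher and 4 to 426 lower. With no filter 1278 were called (410 lower), with all 27 columns 7097 (3892 higher, 3205 lower). Lower calls were 307 with DESeq2, 84 with library size alone, 407 with the mean of copied columns and 79 with only the 2 groups. Lists with more genes lower than higher numbered 4 under library size alone.

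The labels number replicates alike, but the libraries compared with the control share no number. A paired fit with a replicate block gave 2984 calls against the control, and 1619 against 0 min, 698 of them lower; it pairs samples only by number, and the cause of the shift was not tested.

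Library size alone raised the median of all genes from 0.085 to 0.34 and list medians with it, so that 0.069 (redox proteins), 0.016 (lipids), 0.20 (central carbon) and 0.24 (cyclases) came above 0 but stayed below that of all genes. Other medians that changed sign were, for central carbon, 0.033 with a minimum count of 50, 0.020 to 0.046 without 1 replicate and 0.018 with 27 columns. For cyclases they were 0.013 with no filter, 0.11 with a minimum of 50, 0.15 without replicate 2, 0.0048 with 27 columns and 0.13 with the block. Without replicate 3 the cyclase median was -0.11 and kept its sign. The osmolyte median was -0.012 with the block. The cause of these other changes was not tested. The baseline of control and 0 min together, added after seeing the data, gave 3719 calls. Depth of 3198674 to 6889349 counts and 1 library per baseline limit what low-count genes and single control values can show.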
